A study of Mus musculus with 64 samples.

Results

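Germ cells sorted from the testes of E16.5 mouse embryos were profiled by RNA-Seq to find which genes change when Morc1 is lost. The comparison took 4 of the 64 samples of the series by their labels: 2 libraries labelled Morc1 KO (Morc1tg/tg) and 2 labelled Morc1 het (Morc1tg/+). Each library came from 1 untreated embryo, and the controls were littermates. The Morc1tg allele was made on FVB/N by insertion of a tyrosinase transgene into Morc1, which removed exons 2 to 4, and it was crossed to an Oct4-IRES-eGfp reporter strain, so that the background of both groups was mixed. Cells positive for eGFP were sorted after addition of the dead-cell dye 7-AAD, and RNA-Seq libraries were built from 10 ng of total RNA depleted of ribosomal RNA. The controls were therefore not wild type, because they carried 1 mutant allele and its transgene as well as the reporter, and the mutation was a single insertion allele.

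To follow the same genes later, libraries sorted at E18.5 (2 of each genotype), at P2.5 (3 Morc1tg/+ and 2 Morc1tg/tg) and at P10.5 (4 Morc1tg/+ and 3 Morc1tg/tg) were also used. Cells were gated on eGFP at E18.5 and P2.5. At P10.5 they were gated on low side scatter, high EPCAM and absence of MHC class I. The paper describes the reporter cross for E16.5 to P2.5 only, so strain background may differ at P10.5 too. Age, sorting method and any difference of background cannot be told apart there.

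MORC1 is a nuclear protein of the male germ line with an ATPase domain of the GHKL type, and related MORC proteins act in gene silencing in plants and animals. In the fetal testis, male germ cells rest from division while DNA methylation, which was erased earlier, is laid down again on transposable elements and imprinted loci. Male mice without MORC1 are infertile.

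The exons that the allele lacks are printed here because they define the mutation. In mm9 and GENCODE vM1 they lie on the plus strand of chromosome 16, exon 2 at chr16:48437388-48437441, exon 3 at chr16:48442518-48442552 and exon 4 at chr16:48446426-48446494. Together they hold 158 bases, which is 2 bases past a whole number of codons. Capitals mark the codons of the conserved ATP-binding motifs of GHKL domains, the N box across exons 2 and 3 and the DxGxG box in exon 4.
Morc1 exon 2: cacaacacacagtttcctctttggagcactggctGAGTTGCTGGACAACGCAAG
Morc1 exon 3: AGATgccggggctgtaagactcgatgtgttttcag
Morc1 exon 4: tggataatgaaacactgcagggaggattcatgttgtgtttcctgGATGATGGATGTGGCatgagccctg

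The 300 bases before the annotated start of 4 genes whose values are described in the following paragraphs are printed with each CG dinucleotide in capitals, since CG is where mammalian DNA is methylated. Clca4 and Slc15a2 were among the genes with the smallest p. Tmc2 and Cdkl4 are listed by the study near regions of altered methylation, of which it found very few at E16.5. Each sequence is given 5′ to 3′ in the direction of its gene, from the mm9 genome: Clca4 at chr3:144512322-144512621 (minus strand), Slc15a2 at chr16:36785049-36785348 (minus), Tmc2 at chr2:130020630-130020929 (plus) and Cdkl4 at chr17:80963175-80963474 (minus).
Clca4 upstream: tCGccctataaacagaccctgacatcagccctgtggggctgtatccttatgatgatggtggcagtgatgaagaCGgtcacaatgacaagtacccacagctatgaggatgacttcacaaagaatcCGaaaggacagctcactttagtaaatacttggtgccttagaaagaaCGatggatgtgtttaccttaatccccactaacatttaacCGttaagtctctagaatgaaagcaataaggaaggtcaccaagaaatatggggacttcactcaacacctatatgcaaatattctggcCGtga
Slc15a2 upstream: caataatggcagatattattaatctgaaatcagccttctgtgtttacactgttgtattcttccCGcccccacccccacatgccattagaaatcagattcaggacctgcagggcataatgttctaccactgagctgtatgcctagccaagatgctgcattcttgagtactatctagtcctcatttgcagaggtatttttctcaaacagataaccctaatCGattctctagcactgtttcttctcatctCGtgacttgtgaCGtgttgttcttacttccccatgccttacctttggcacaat
Tmc2 upstream: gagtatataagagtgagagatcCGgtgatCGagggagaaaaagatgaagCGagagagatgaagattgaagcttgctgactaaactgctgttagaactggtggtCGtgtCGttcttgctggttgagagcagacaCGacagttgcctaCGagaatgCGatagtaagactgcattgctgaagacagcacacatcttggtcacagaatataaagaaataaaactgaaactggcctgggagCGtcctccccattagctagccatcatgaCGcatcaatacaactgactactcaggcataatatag
Cdkl4 upstream: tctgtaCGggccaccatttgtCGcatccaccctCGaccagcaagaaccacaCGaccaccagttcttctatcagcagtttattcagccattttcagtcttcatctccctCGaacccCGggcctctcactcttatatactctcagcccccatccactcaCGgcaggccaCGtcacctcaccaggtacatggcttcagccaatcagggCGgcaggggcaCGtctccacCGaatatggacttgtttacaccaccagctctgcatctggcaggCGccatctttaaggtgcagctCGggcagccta

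These windows held 6 CG in Clca4, 4 in Slc15a2, 10 in Tmc2 and 13 in Cdkl4. Of all genes tested, 25.8% held at most as many as Clca4, 17.7% as Slc15a2, 39.1% as Tmc2 and 48.7% as Cdkl4. CG reads the same on both strands, so each count covers both.

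The 4 libraries held 7610757 to 14918478 reads on genes. The later libraries were shallower on the whole, at 2413679 to 9641942 reads. Every pair of E16.5 libraries differed by more than sampling noise (chi-square per gene 6.56 to 11.1), and the median absolute log2 difference was 0.217 between the controls, 0.234 between the mutants and 0.245 to 0.259 across genotypes. Genes of germ cells were high. Dazl, an RNA-binding protein of germ cells, had a mean of 181 RPKM in Morc1tg/+ and 188 in Morc1tg/tg, and the germ cell helicase Ddx4 had 72.1 and 81.4 (RPKM, reads per kilobase of exon scaled to the mapped reads). Markers of other testis cells were lower on the same scale but present. The highest of each list were Krt18 (30.7 and 24.6 RPKM) and Clu (22.7 and 21.1) for Sertoli cells, Ptch1 (15.6 and 15.0) for peritubular cells, Scarb1 (11.1 and 10.48) for Leydig cells, Fcer1g (7.88 and 5.29) and Cd68 (4.81 and 8.33) for macrophages and Egfl7 (6.50 and 7.97) and Cdh5 (7.51 and 5.44) for endothelium. More specific markers ranged from moderate to low. Sox9 of Sertoli cells had 7.05 and 8.47 RPKM, Pdgfrb of stromal cells 9.39 and 8.61 and Pecam1 of endothelium 5.01 and 5.37. Others were low. Amh of Sertoli cells had 1.00 and 1.18 RPKM, the Leydig cell enzyme Cyp17a1 0.729 and 1.77 (2.97 and 0.568 in the single mutant libraries), the macrophage receptor Csf1r 0.291 and 0.207, and Insl3 of Leydig cells had 1 read in all 4 libraries together. In such bulk samples, fewer cells of a type and less RNA per cell cannot be told apart.

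Morc1 itself was measured first. Its level was 190.2 and 239.6 CPM (reads scaled to the library's reads on genes, with TMM factors) in the control libraries and 50.9 and 38.7 CPM in the mutant libraries. Both mutant libraries lay far below both controls, a fall of 4.76-fold (log2 fold change -2.25, SE 0.141, adjusted p = 1.94e-09), so the libraries matched their labels. Reads on exons outside the deletion remain countable, and the deposited values do not separate exons. Tyr, the gene that the insertion carries, had 3.98 and 4.41 CPM in controls and 7.21 and 6.73 CPM in mutants, without passing the test (log2 fold change 0.73, SE 0.400, adjusted p = 0.639). Pou5f1, whose promoter drives the sorting reporter, had 58.5 and 61.9 against 66.7 and 72.4 CPM (log2 fold change 0.21, SE 0.134, adjusted p = 0.697). Of 44 genes tested within 5 Mb of Morc1, 0 were called in the edgeR test, where 0.421% of all genes were, so that a count of 0 says little, and their median log2 fold change was -0.0121. DESeq2, which gives no adjusted p to genes of low count, called 0 of them too (1 of 80 within 10 Mb). In the edgeR test, 4 of the 44 had an unadjusted p under 0.05 (8.7% of all genes did), and the smallest adjusted p was 0.105, for Cd200r2.

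Across the genome, more genes were called higher than lower in Morc1tg/tg germ cells at E16.5. Of 16630 genes tested, 64 were higher (0.385%) and 6 lower (0.0361%), 70 in all (0.421%), at an adjusted p under 0.05 in edgeR's quasi-likelihood test. The median log2 fold change of the higher genes was 0.90, against -0.00886 over all genes tested. At an unadjusted p under 0.05 the count was 1447 (8.7%), of which 784 were higher (4.71%) and 663 lower (3.99%), so the excess of higher genes was much smaller there. Groups that did not overlap were no rarity in a comparison of 2 with 2: 19.3% of genes tested were higher in both mutant libraries than in both controls, and 20.1% lower in both.

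**Figure D1:**
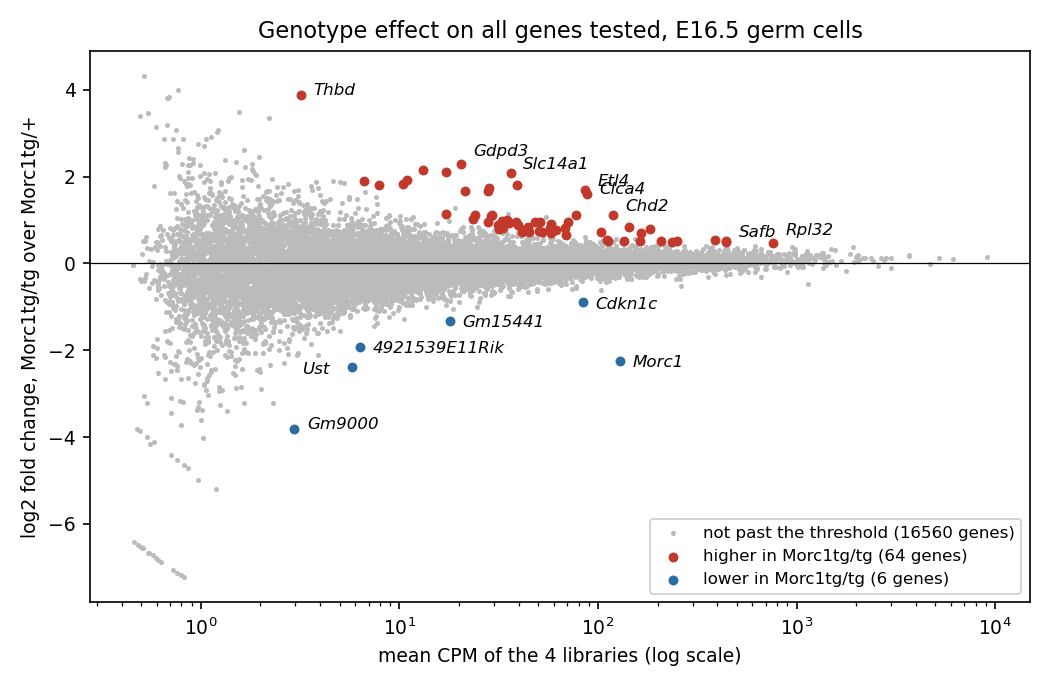
Each point is 1 of the 16630 genes tested at E16.5, with its mean level over the 4 libraries in CPM (log scale) on the x axis and its log2 fold change, Morc1tg/tg over Morc1tg/+, on the y axis. The 64 genes called higher are red and the 6 called lower are blue, and Morc1, at -2.25, is the lowest of the blue points among abundant genes.

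Both the counts and the genes called moved with the settings. DESeq2 called 99 genes higher and 11 lower and shared 60 of the 70 calls, and without the second mutant library, the shallowest of the 4, 113 were higher and 58 lower. Without the second control, 59 were higher and 15 lower, and without the first mutant 61 and 21. Scaling by library size alone gave 63 and 26. Among the calls that DESeq2 did not share, Hbb-b1 had an adjusted p of 0.561 in its test. The others had no adjusted p there because of their low counts. The test on the authors' RPKM with limma called 22 higher and 11 lower and kept 15 of the 70. In each of the 70 genes the groups did not overlap in CPM. Leaving out a library could therefore hardly turn a direction, and a kept direction is little support. All 70 genes kept their direction under each of the 12 alternative settings, and 27 passed the threshold without each of the 4 libraries in turn, fits in which 1 genotype has a single library that is assumed to vary like the other genotype. Of these 27, 25 were higher and 2 lower (Morc1 and Cdkn1c). When all sorted libraries of the 4 stages shared 1 estimate of the spread, 8 genes were called, Morc1 lower and Etl4, Dock3, Pitpnc1, Fam117b, Rspry1, Msl1 and Chd2 higher.

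Among the genes with the strongest rise were membrane transporters. Slc14a1, a urea transporter, had 14.6 and 13.4 CPM in the controls and 55.1 and 62.8 CPM in the mutants. Its groups were well apart, with a log2 fold change of 2.08 (SE 0.178, adjusted p = 4.89e-07). Slc15a2, a proton-coupled carrier of small peptides, had 6.87 and 6.09 against 26.1 and 29.4 CPM (log2 fold change 2.10, SE 0.246, adjusted p = 3.8e-05). Clca4, of a family that regulates calcium-activated chloride channels, had 48.4 and 38.9 against 148.7 and 115.7 CPM (log2 fold change 1.61, SE 0.145, adjusted p = 9.05e-07). Each of these genes rose by a factor of 3.05 or more, and in each both mutant libraries lay above both controls. Abcb1a, the drug efflux pump P-glycoprotein, had 6.41 and 3.34 against 19.5 and 23.2 CPM (log2 fold change 2.15, adjusted p = 0.000696). Tmc3 and Tmc2 belong to the transmembrane channel-like family, of which TMC2 is a part of the mechanotransduction channel of hair cells. Tmc3 had 16.7 and 9.43 against 47.8 and 38.8 CPM (log2 fold change 1.75, adjusted p = 0.000209), and Tmc2 had 32.2 and 37.2 against 69.6 and 65.5 CPM (log2 fold change 0.96, SE 0.149, adjusted p = 0.00158).

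Genes of lipid and signalling proteins were called as well. Pitpnc1, a phosphatidylinositol transfer protein, had 15.7 and 18.9 CPM in controls and 57.8 and 64.03 CPM in mutants (log2 fold change 1.81, SE 0.173, adjusted p = 2.07e-06). Gdpd3, an enzyme that acts on lysophospholipids, had 9.49 and 4.48 against 26.2 and 41.5 CPM (log2 fold change 2.29, SE 0.294, adjusted p = 0.000157). Etl4, a gene known from development of the notochord and the discs between vertebrae, had 42.5 and 39.7 against 162.7 and 99.4 CPM. The mutants of Etl4 spread widely, by more than the gap between the groups, though both lay above both controls (log2 fold change 1.68, SE 0.168, adjusted p = 3.6e-06). Dock3 and Dock1, which activate the small GTPase Rac, had log2 fold changes of 0.84 and 0.83 (adjusted p = 0.000344 and 0.0417). Rspry1, a protein with RING and SPRY domains, had 46.1 and 52.0 against 106.1 and 105.8 CPM (log2 fold change 1.11, SE 0.130, adjusted p = 3.8e-05).

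Some of the called genes encode proteins of chromatin and of RNA processing. Chd2, a chromatin remodeller of the CHD family, had 77.1 and 73.8 CPM in controls and 164.2 and 161.9 CPM in mutants. The libraries of each group differed little, and the rise was 2.16-fold (log2 fold change 1.11, SE 0.114, adjusted p = 4.81e-06). Msl1, the scaffold of a complex that acetylates histone H4, had 40.6 and 40.0 against 77.3 and 74.2 CPM (log2 fold change 0.91, adjusted p = 0.00128). Safb, a nuclear matrix protein that binds RNA, had 355.4 and 370.4 against 532.0 and 507.1 CPM (log2 fold change 0.52, adjusted p = 0.00778). Cstf2t and Fip1l1, factors of mRNA 3′ end formation, and the poly(A) ribonuclease Parn had log2 fold changes of 1.09, 0.49 and 0.78 (adjusted p = 0.00778, 0.0278 and 0.0497). These groupings were made after the values were seen and carry no test, and the genes named in them beyond those of largest change or smallest p were chosen in the same way.

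Genes of secreted, surface and adhesion proteins were also among the calls. Thbd, the thrombin receptor thrombomodulin, had the largest fitted change, from 6 and 4 reads in the controls to 50 and 60 reads in the mutants (0.542 and 0.268 against 4.10 and 7.92 CPM, log2 fold change 3.89, SE 0.717, adjusted p = 0.0102). F8, coagulation factor VIII, had 15.5 and 11.4 against 51.9 and 32.6 CPM (log2 fold change 1.67, SE 0.226, adjusted p = 0.000278). Cd209c, a C-type lectin of the DC-SIGN family, had 4.52 and 4.61 against 18.0 and 16.6 CPM (log2 fold change 1.92, SE 0.300, adjusted p = 0.00158). Thbd and Cd209c were low in controls, and all of these genes were higher in both mutant libraries. Cdh12, a cadherin, Nell1, a secreted protein with EGF-like repeats, and Skint2, of a family of immunoglobulin-like proteins of skin and thymus, had log2 fold changes of 1.82, 1.80 and 1.91 (adjusted p = 0.0123, 0.0143 and 0.0417). The collagen VI genes Col6a3 and Col6a5 had log2 fold changes of 0.92 and 0.97 (adjusted p = 0.0183 and 0.0081).

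**Figure D2:**
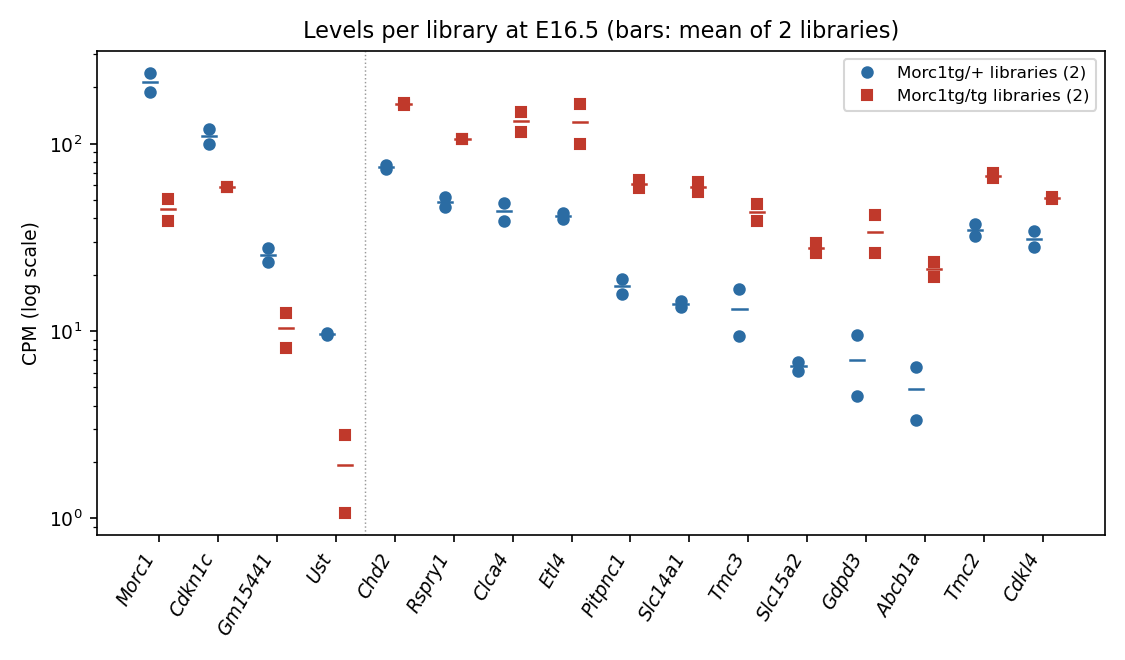
CPM (log scale) of 16 called genes in each of the 4 E16.5 libraries, Morc1tg/+ as blue circles and Morc1tg/tg as red squares, with a bar at the mean of each 2. The 4 genes left of the dotted line were lower in Morc1tg/tg and the others higher, and no gene shown has overlapping groups, as held for every called gene.

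Only 5 genes other than Morc1 were called lower. Cdkn1c, the cyclin-dependent kinase inhibitor p57 and an imprinted gene read from the maternal allele, had 99.5 and 120.0 CPM in controls and 59.0 and 58.9 CPM in mutants. The mutants were nearly equal and lay below both controls, a fall of 1.86-fold (log2 fold change -0.90, SE 0.131, adjusted p = 0.000698). Ust, an enzyme that adds sulfate to chondroitin and dermatan chains, had 9.76 and 9.56 against 1.07 and 2.77 CPM (log2 fold change -2.40, SE 0.462, adjusted p = 0.0133). Gm15441 had 23.5 and 27.7 against 8.11 and 12.5 CPM (log2 fold change -1.33, SE 0.250, adjusted p = 0.012). Gm15441 overlaps Txnip on the opposite strand, and Txnip had a log2 fold change of -0.31 without passing the test (adjusted p = 0.269); the sources used here do not say whether the counting could tell the strands apart. The gene 4921539E11Rik had 11.02 and 9.16 against 3.20 and 1.98 CPM (log2 fold change -1.93, SE 0.402, adjusted p = 0.0256). Gm9000 lies inside Pde4d on the same strand and fell from 69 and 71 reads to 1 and 6 reads (log2 fold change -3.81, SE 0.770, adjusted p = 0.02), while Pde4d had a log2 fold change of 0.01 (adjusted p = 0.994).

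Lists of genes of known pathways were then read member by member. The median of all genes tested, with which each list's median may be set, was -0.00886, and 0.421% of all genes were called, so that 0 calls in a list of this size is near the share over all genes. The Morc family had 1 of 5 members called, Morc1 itself, while Morc2a, Morc2b, Morc3 and Morc4 had log2 fold changes of 0.04, 0.02, -0.18 and 0.08. Of the piRNA pathway, which makes small RNAs against transposable elements in these cells, 0 of 28 members were called and the median was 0.054. Piwil2 had 810.0 and 962.8 CPM in controls and 952.0 and 967.2 CPM in mutants, and Piwil4, the nuclear PIWI protein of the fetal testis, had 409.5 and 436.1 against 469.2 and 440.7 CPM. The groups of both overlapped or nearly met. The smallest adjusted p of the pathway was 0.105, for Gtsf1 (log2 fold change 0.41).

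DNA methylation genes likewise had 0 of 20 members called, with a median of -0.067. Dnmt3a, the enzyme that sets methylation anew, had 855.1 and 806.0 against 838.0 and 832.5 CPM, and its cofactor Dnmt3l had 285.1 and 283.0 against 278.8 and 259.6 CPM. Their log2 fold changes were 0.01 and -0.08, with SEs of 0.0859 and 0.0970. Germ cell identity genes had 0 of 34 called (median 0.044), with Kit nearest at 0.56 (adjusted p = 0.191). H3K9 methylation and HP1 had 0 of 28 called and Polycomb 0 of 28, with Rcor1 at -0.55 (adjusted p = 0.183) and Ezh2 at 0.64 (adjusted p = 0.178) as their members of smallest p. Of the genes of meiotic entry and prophase, 0 of 30 were called (median 0.10). Sycp1, of the synaptonemal complex, came closest with 90.4 and 83.9 against 125.5 and 121.6 CPM (log2 fold change 0.50, SE 0.117, adjusted p = 0.0598).

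Interferon and nucleic acid sensing genes had 0 of 39 called and a median of 0.03. DESeq2 called 110 of the 16630 genes given to it. It gives no adjusted p to genes of low count, such as Abcb1a and Cd209c, so it could call only part of them. It called 1 of 39 interferon genes, 1 of 28 of the piRNA pathway and 3 of 30 of the meiotic list. Each of these is a larger share than 110 of 16630. The share over the genes that it could call is not given here, and the shares were not tested. It called 0 of the DNA methylation, germ cell identity, H3K9 methylation and Polycomb lists. Of these lists, an unadjusted p under 0.05 was reached by 5 members of the piRNA pathway, 3 of DNA methylation, 5 of germ cell identity, 3 of H3K9 methylation, 5 of Polycomb, 5 of meiosis and 3 of interferon genes, against 8.7% of all genes tested. Pluripotency (18 tested), cell cycle (42), DNA damage and apoptosis (39), H3K4 methylation (19), germline genes repressed by methylation (29) and genes of the early embryo linked to the MERVL element (7) had 0 called too by edgeR, with medians from -0.027 to 0.054. Their members at an unadjusted p under 0.05 numbered 1, 6, 2, 4, 6 and 0, and DESeq2 called 2 of the methylation-repressed genes and 0 of the others. A p that misses the threshold in 2 against 2 libraries does not show that a gene was unaffected.

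**Figure D3:**
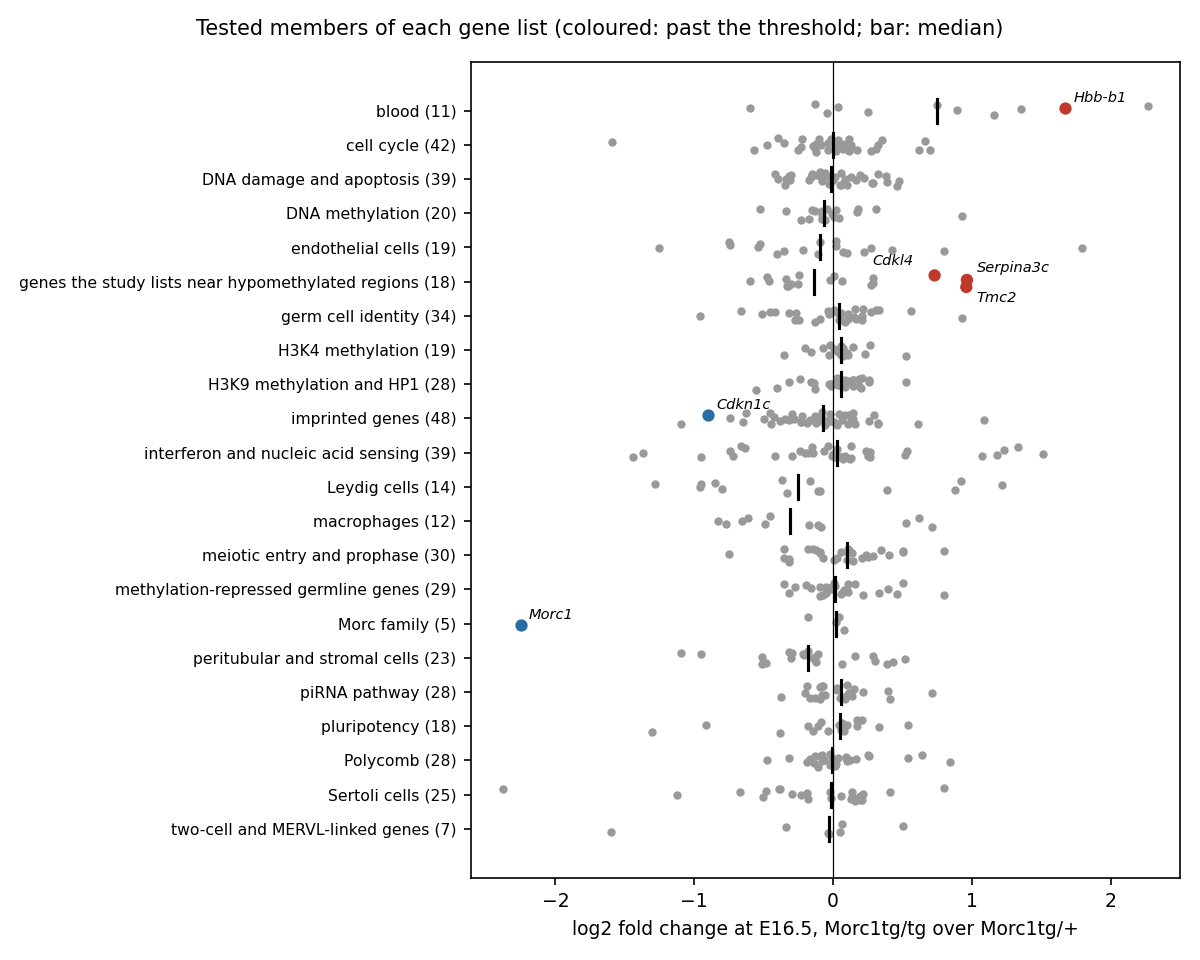
Each grey point is a tested member of a gene list that did not pass the threshold, on an x axis of log2 fold change at E16.5, Morc1tg/tg over Morc1tg/+, and each red (higher) or blue (lower) point is a called member. Rows are lists with the number tested in parentheses, black bars are list medians, and 6 names stand beside the called members.

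Among imprinted genes, Cdkn1c was the 1 member of 48 tested that passed (0.421% of all genes were called), 8 of the 48 had an unadjusted p under 0.05 (8.7% of all genes), and the list had 19 positive and 29 negative log2 fold changes (median -0.07). Zdbf2 had 128.2 and 123.4 against 88.7 and 99.0 CPM and a log2 fold change of -0.42 (adjusted p = 0.147), and the maternally read RNA Meg3 had 67.1 and 41.9 against 32.0 and 37.5 CPM (-0.65, adjusted p = 0.184). The growth factor Igf2 had a log2 fold change of -0.30 (adjusted p = 0.357), and H19 had 0.12 (adjusted p = 0.913).

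A list of protein-coding genes was chosen by the study for an annotated start near a region hypomethylated in Morc1tg/tg germ cells. The choice rested on methylation and not on RNA, in germ cells of the same mutant line, so the list does not come from another mutant. The paper found many hypomethylated regions at P2.5 and very few at E16.5, so the list does not describe methylation in the E16.5 cells. Of 18 members tested, 3 were called, all higher (0.385% of all genes were): Tmc2, Serpina3c and Cdkl4. DESeq2 called the same 3, and 0 were called by limma on RPKM or in the fit of all sorted libraries. An unadjusted p under 0.05 was reached by 4 of the 18, where 8.7% of all genes reached it. Serpina3c, a serine protease inhibitor, had 19.3 and 18.8 against 37.8 and 36.6 CPM (log2 fold change 0.96, SE 0.185, adjusted p = 0.0131). Cdkl4, a kinase related to cyclin-dependent kinases, had 34.1 and 28.2 against 52.2 and 50.8 CPM and lay just within the threshold (log2 fold change 0.73, SE 0.163, adjusted p = 0.0449). The median of the 18 was -0.13, and 10 of them were negative. Neb, the giant muscle protein nebulin, was among these with 791.2 and 666.9 against 585.1 and 597.1 CPM (log2 fold change -0.30, SE 0.0949, adjusted p = 0.241).

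Markers of the other cells of the testis were read in the same way. Sertoli (25 tested), Leydig (14), peritubular and stromal (23), endothelial (19) and macrophage markers (12) had 0 called by edgeR or DESeq2 and 2, 1, 0, 1 and 1 at an unadjusted p under 0.05. DESeq2 gives no adjusted p to genes of low count, such as the blood marker Alas2, so its 0 says little about markers of lower count. Summed over all listed genes, Sertoli markers had 325.2 and 365.0 CPM in controls and 325.3 and 322.7 CPM in mutants, and macrophage markers 59.4 and 64.1 against 59.7 and 62.2 CPM. Peritubular markers summed to 546.2 and 554.5 against 473.5 and 505.8 CPM, endothelial markers to 255.0 and 265.6 against 241.3 and 232.4 CPM, and Leydig markers to 137.1 and 136.5 against 143.3 and 113.4 CPM. Median log2 fold changes were -0.013 (Sertoli), -0.249 (Leydig), -0.184 (peritubular), -0.092 (endothelial) and -0.314 (macrophage), against -0.00886 over all genes. Positive members numbered 12, 4, 7, 9 and 3 in that order, and negative members 13, 10, 16, 10 and 9. Of the blood markers, 1 of 11 tested was called, Hbb-b1 (0.421% of all genes were called). The sum of the blood markers was 65.0 and 75.4 CPM in controls and 98.3 and 110.6 CPM in mutants, with Hbb-b1 the member that differed most in CPM, and 8 of the 11 were positive (median 0.75, against -0.00886 over all genes). Hbb-b1, an adult beta globin, had 4.34 and 15.7 against 32.8 and 32.6 CPM (log2 fold change 1.67, SE 0.328, adjusted p = 0.0151). DESeq2 called 0 of the blood markers (adjusted p = 0.561 for Hbb-b1), with the same limit for those of low count. The embryonic globins Hbb-bh1 and Hbb-y had 0 reads in all 4 libraries. The part of blood cells in the other calls was not tested.

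The genes called higher were longer than genes at large. Their median span on the genome was 74.4 kb, against 22.7 kb for all genes tested, and their median exon length was 5684 against 3488 bases. With the genes divided by span into 5 equal classes, 35 of the 3326 longest (69.1 kb and over) were called higher (1.05%), against 0.18% to 0.241% in the other classes. Examples are Etl4, Dock3, Pitpnc1 and Chd2. The median log2 fold change of all genes in that longest class was 0.00495, close to that of the others (-0.0182 to -0.00465). The called genes also had more reads, with a median of 44.8 CPM against 15.8, and more reads and longer transcripts make a gene easier to call. The part of depth in the difference of span was not tested. All 64 genes were protein coding, as were 96.9% of genes tested.

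Upstream sequence was described without a test. In the 300 bases before the start, 13 of the 64 higher genes held at most 3 CG (20.3%), against 13.3% of all genes tested, with lower and upper quartiles of 4.75 and 21 CG against 6 and 23. To describe repeated DNA there, each upstream window was divided into 12 stretches of 25 bases and the copies of each stretch in the mm9 genome were counted. At least 3 stretches with 20 or more copies were found in 1 of the 64 genes (1.56%, Pkhd1l1), against 1.91% of 16625 genes. Any such stretch was found in 3 of the 64 (4.69%), against 7.55% of all. In the Cdkl4 window 2 stretches were repeated, the most common with 102 copies, and in the Tmc2 window 1 stretch with 37 copies. Neither window reached 3 repeated stretches. The paper describes an RLTR10A element directly before the start of both genes. The cut-off of 3 stretches therefore missed known elements, while both genes held a repeated stretch. Copies were counted without naming elements, so these shares cannot show whether the higher genes carry more transposable elements there. By chromosome, the calls numbered from 0 on Y to 9 on chromosome 7. Chromosome 16 had 5 of 521 genes called (0.96%, against 0.421% of all genes), of which 1 was Morc1 itself and 4 were called higher. These 4, Slc15a2 among them, lie more than 10 Mb from Morc1, and strain sequence linked to the allele was not examined. The share of chromosome 16 was the highest only with Morc1 counted, beside 0.78% on chromosome 5 and 0.75% on chromosome 18. These shares were not tested. Called genes lay within 1 Mb of each other in 3 pairs, Akap9 and Cdk14 (723 kb apart), Mex3b and Tmc3 (713 kb) and Col6a5 and Dock3 (932 kb).

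Libraries of other embryos at E18.5 gave an independent reading of the E16.5 calls. All 64 higher genes were tested at E18.5, and 55 of them were positive there, where 51.1% of all genes were. Their median log2 fold change was 0.82, close to the 0.90 of E16.5. In the E18.5 libraries, 6 of 14422 genes passed the threshold (0.0416%), all higher, 6.21% had an unadjusted p under 0.05, and Clca4 and Cdkl4 were 2 of the 6. Clca4 had 37.2 and 48.1 CPM in the E18.5 controls and 231.4 and 253.7 CPM in the mutants (log2 fold change 2.51, SE 0.254, adjusted p = 0.0133). Cdkl4 had 6.45 and 7.29 against 73.5 and 76.4 CPM (log2 fold change 3.44, SE 0.436, adjusted p = 0.0328). Without the first or the second E18.5 control, 20 or 14 of the E16.5 calls passed at E18.5 in the same direction, and without either E18.5 mutant 0 did. DESeq2 gave 26 such genes. Of the genes called lower, 4 of 6 were negative at E18.5, Cdkn1c with 322.5 and 374.5 against 151.2 and 192.7 CPM (log2 fold change -1.02, adjusted p = 0.241).

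Some higher genes fell in control cells between E16.5 and E18.5 and fell less, or not at all, in mutants. On 1 scale for both stages, Tmc2 changed by -4.48 in controls and by 0.305 in mutants (log2, E18.5 minus E16.5), Slc14a1 by -3.33 and -0.185, Cdkl4 by -2.25 and 0.366, and Dock1 by -2.1 and 0.0495. Col6a3 changed by -4.57 and -0.471, and Serpina3c by -4.88 and -1.2. This course was not typical of the list. In controls, 11 of the 64 genes fell by over 1 log2 unit (17.2%), where 22% of all genes did, and in mutants the count was also 11 (17.2%, against 21.9%). The genes differed, and those that fell in both were Serpina3c, Gdpd3, Slc15a2, 2310003H01Rik and Safb. Tmc2 had 0 and 5.21 CPM in the E18.5 controls and 93.3 and 94.9 CPM in the mutants, and Slc14a1 had 0.251 and 2.73 against 57.1 and 59.5 CPM. Neither passed the test at E18.5 (adjusted p = 0.12 and 0.0878). The genotype effect itself was tested for a difference between the 2 stages in 16435 genes. It differed in 1 (0.00608%), 2610005L07Rik, which was not called at E16.5, and in 0 of the 70 E16.5 calls in the edgeR test. At an unadjusted p under 0.05 it differed in 1174 genes (7.14%), and DESeq2 called 83.

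**Figure D4:**
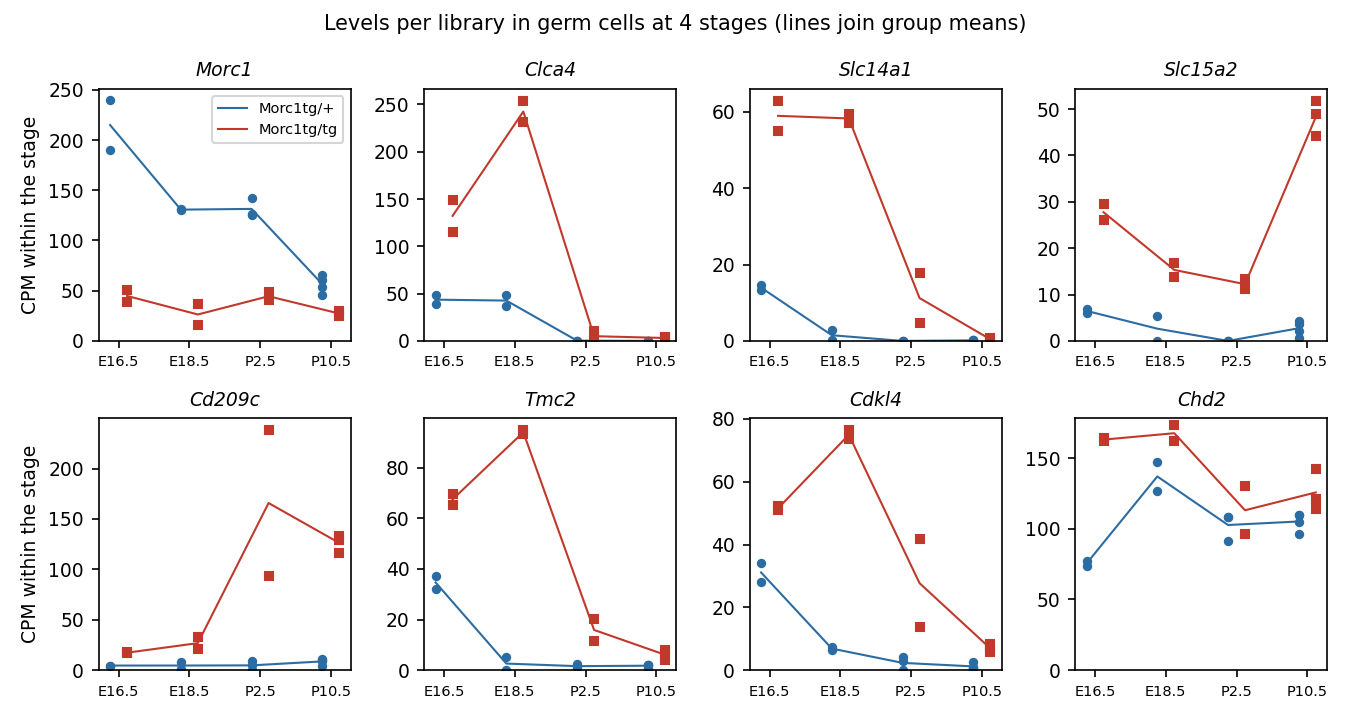
CPM within each stage (linear axes from 0) of 8 genes in every sorted library of the 4 stages, E16.5 to P10.5, Morc1tg/+ as blue circles and Morc1tg/tg as red squares, with lines through the group means. Tmc2, Cdkl4 and Slc14a1 drop in controls after E16.5 while mutants stay high at E18.5, and Cd209c and Slc15a2 stay apart to P10.5.

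At P2.5, 42 of 61 higher genes tested were positive (48.5% of all genes were) and the median was 0.22. In these libraries 7 of 14413 genes passed (0.0486%), and among them were Cd209c, Cdh12 and Col6a3 as well as Morc1, the 1 gene called lower (0.00694%). At an unadjusted p under 0.05 the share was 4.84%. Cd209c had 0, 5.08 and 9.20 CPM in the 3 controls and 93.6 and 238.0 CPM in the 2 mutants (log2 fold change 4.93, adjusted p = 0.00539). Col6a3 had 0.508, 1.02 and 3.498 against 49.9 and 81.4 CPM (log2 fold change 5.54, adjusted p = 0.00418). In both genes every mutant library lay far above every control. No E16.5 call still passed at P2.5 when the second or the third P2.5 control was left out. The effect differed from E16.5 in 0 of 16475 genes in the edgeR test, in 1000 at an unadjusted p under 0.05 (6.07%) and in 25 by DESeq2.

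P10.5 germ cells, gated in another way, had many more calls, 1712 of 14019 genes (12.2%; 901 higher and 811 lower). Of 60 higher genes tested, 42 were positive (50.4% of all genes were), 20 were called higher again (6.43% of all genes were called higher) and 5 were called lower (5.79% of all genes were), namely Akap9, Ankrd12, Hbb-b1, Npc1l1 and Sdk1. Slc15a2 had 0.670 to 4.37 CPM in the 4 controls and 44.1 to 51.7 CPM in the 3 mutants (log2 fold change 4.15, SE 0.259, adjusted p = 2.99e-12). Col6a3 had 0.265 to 2.40 against 102.1 to 149.2 CPM (log2 fold change 6.49, adjusted p = 5.13e-18), and Cd209c had 4.37 to 10.8 against 116.6 to 132.7 CPM (log2 fold change 3.84, adjusted p = 4.86e-16). Etl4, among the strongest at E16.5, had 26.4 to 40.2 against 19.7 to 39.3 CPM (log2 fold change -0.07, adjusted p = 0.864). The chromatin remodeller Chd2 had 96.1 to 110.0 against 114.0 to 142.3 CPM (0.26, adjusted p = 0.0721). The genotype effect differed between E16.5 and P10.5 in 290 of 16917 genes (1.71%), and 29 of the 70 E16.5 calls were among them.

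**Figure D5:**
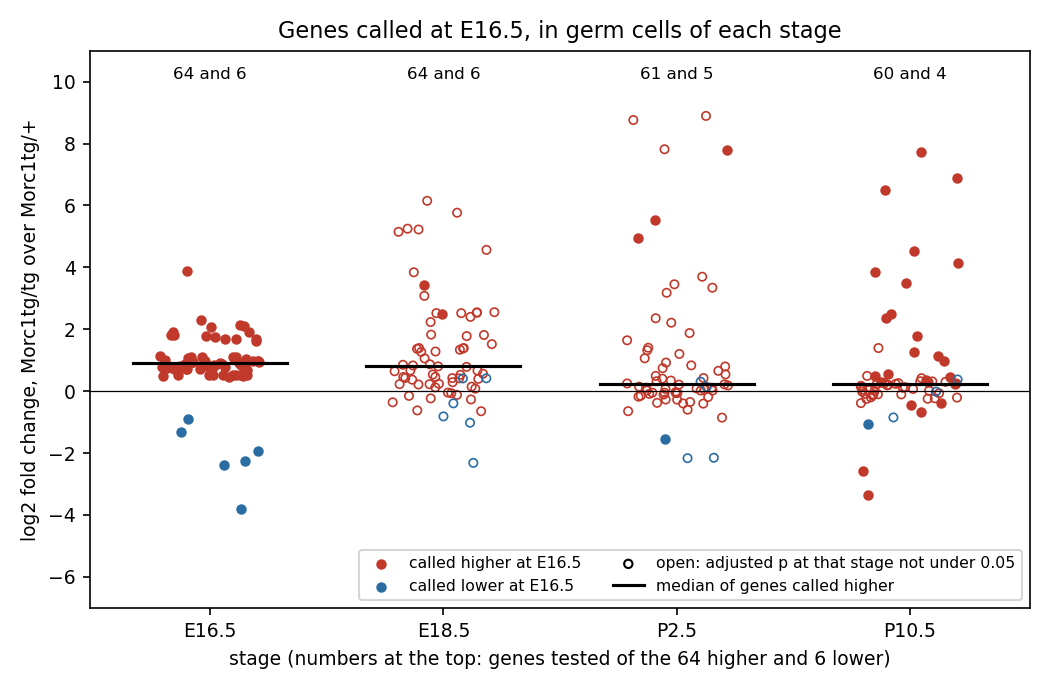
Log2 fold change, Morc1tg/tg over Morc1tg/+, of the genes called at E16.5 (red higher, blue lower) at each of 4 stages, filled where the adjusted p at that stage was under 0.05, with a black line at the median of the higher genes. The median of 0.90 at E16.5 is followed by 0.82 at E18.5 and falls to 0.22 at P2.5 and P10.5, and the E16.5 column shows the values that chose the genes.

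Morc1 was low in mutants at each stage. Controls had 130.0 and 131.4 CPM at E18.5, 125.5 to 142.2 CPM at P2.5 and 45.8 to 65.3 CPM at P10.5, and mutants had 15.4 and 37.2, 40.5 and 48.4, and 24.9 to 30.0 CPM. The log2 fold change was -2.32 at E18.5 (SE 0.413, adjusted p = 0.14), -1.56 in P2.5 cells (adjusted p = 0.0257) and -1.05 in the P10.5 cells (adjusted p = 6.97e-06). No groups overlapped at any stage, and at E18.5 the fall was as large as at E16.5 though it did not pass the threshold.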

How the data were processed

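Gene counts and RPKM were taken from the sorted germ cell libraries of the 4 stages. Per the labels and methods, the authors trimmed reads to 50 bp, discarded ribosomal reads (up to 3 mismatches), mapped the rest to mm9 genes and repeats and then the genome (up to 2 mismatches, unique reads only) and counted reads on genes with HTSeq. The deposited counts are raw and not normalized, and the deposited RPKM is the count per kilobase of exon scaled to the mapped reads. For the aligner of these reads, no name is given in the sources used here. Unique mapping leaves out reads from repeats and near-identical genes.

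Groups came from the labels. Counts were tested with edgeR 4.0.16 in R 4.3.3 (TMM, filterByExpr, quasi-likelihood test, no covariate, Benjamini-Hochberg over all genes tested, threshold 0.05). Differences of effects between stages were interaction terms of genotype and stage. DESeq2 1.42.0 and limma 3.58.1 on log2(RPKM + 0.1) were alternatives, with other normalizations, filters and libraries left out. The scripts were tested on simulated data. Replicate numbers did not pair the libraries (r = -0.0313 between deviations). Precision was limited by 2 libraries a group, and p-values measure the spread between embryos. Named genes were Morc1, Tyr, Pou5f1, Neb, Tmc2 and Cdkl4, the 15 called genes of largest change and the 6 of smallest p in each direction with groups not overlapping and a mean of at least 1 CPM, and called or abundant list members. Gene coordinates matched GENCODE vM1 for 26009 of 26385 genes. The genes and lists were chosen with earlier results of these data known. Repeat families, methylation and chromatin data were not used here.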

Additional observations from a re-analysis of the deposited data

Results flagged for a closer look

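The genotype effect differed between E16.5 and a later stage for 1 gene at E18.5 (2610005L07Rik, E16.5 minus E18.5 effect -2.97 on the log2 scale, adjusted p = 0.0128) and for 290 genes at P10.5, by interaction terms in edgeR. Age, sorting gate and any difference of strain background cannot be told apart at P10.5.

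Among the genes named by rule, the effect at E16.5 was below that at P10.5 (E16.5 minus P10.5, log2) for Cd209c (-1.92), Cdh12 (-5.12), Cdkl4 (-1.76), Cdkn1c (-1.28), Clca4 (-6.24), Gdpd3 (-2.23), Morc1 (-1.21), Neb (-1.53) and Slc15a2 (-2.06). Of these, Clca4 had 0 reads in all 4 P10.5 controls, so that its fitted value depends on the prior count. Neb had 282.5 to 336.1 CPM in the P10.5 controls and 714.9 to 777.3 CPM in the mutants, and its log2 fold change at E16.5 was -0.30 without passing the test. The effect at E16.5 was above that at P10.5 for Chd2 (0.854), Etl4 (1.75), Hbb-b1 (5.04), Pitpnc1 (1.25) and Rspry1 (1.36). Other genes called at E16.5 whose effect differed were Col6a3, below (-5.57, adjusted p = 7.52e-11), and, above, Msl1, Mpp6, Fam117b, Dock3, Ankrd12, Atp13a3, 4930473A06Rik, Ndufb7, Gtdc1, Akap9, BC057079, Sdk1, Camk4, Col6a5 and Npc1l1, with differences from 0.61 (Msl1) to 3.68 (Npc1l1).

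In the P10.5 controls, 5 of 27 genes had 1 of the 4 libraries apart from the other 3 relative to their range. Chance gives this in about 1 of 20 genes with continuous values, a rate that does not hold for Abcb1a, Cdh12 and Gm9000, where the other 3 libraries had 0 reads. The library stood highest for Abcb1a (0.112 CPM), Cdh12 (0.120), Gm15441 (1.46) and Gm9000 (0.841), and lowest for Tmc2 (0.841). No group at E16.5 has enough libraries for that comparison.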

How the results depend on the processing

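All 70 genes called at E16.5 kept their sign under the 12 alternatives, and no called value changed direction, though untested medians of some gene lists changed sign. The groups of each of the 70 did not overlap in CPM, so leaving out a library could hardly change a sign. The count of genes higher at E16.5 (64) came to 99 by DESeq2, 141 with no filter on low counts, 22 by limma on RPKM (chosen after seeing the data) and 7 in the fit of all sorted libraries, and 59 to 113 with a library left out. The count of genes lower at E16.5 (6) was 11, 39, 11 and 1 in the same order, 26 with library size alone, and 9 to 58 with a library left out. Library size alone moved the median of all genes to -0.0595, and limma on RPKM to 0.0676. With the replicate number as a block, 138 genes were higher and 36 lower, all 70 calls among them, though the numbers did not pair the libraries, and every call of the E16.5 fit was kept. E16.5 calls also called at E18.5, same direction (2), numbered 1 with library size alone, 26 by DESeq2, 29 with no filter, 18 with the block, 0 by limma and 0 to 20 with a library left out. E16.5 calls also called at P2.5, same direction (4), numbered 7, 10, 7 and 0 by DESeq2, no filter, block and limma, and 0 to 5 with a library left out. E16.5 calls also called at P10.5, same direction (21), numbered 40 with no filter and 8 by limma. Genes in which the genotype effect differs, E16.5 against E18.5 (1), numbered 83 by DESeq2, 65 with no filter, 0 with the block and 0 to 378 with a library left out (378 without the first E18.5 control). Where the genotype effect differs, E16.5 against P2.5 (0), they numbered 25, 44 and 0 to 104 (104 without the second P2.5 mutant), and where the genotype effect differs, E16.5 against P10.5 (290), they were 479, 507 and, by limma, 52, with 130 to 312 when a library was left out (130 and 149 without the first and second E16.5 mutant). The causes were not tested. The mitochondrial alternative gave no value, as no mitochondrial gene was among those read. Of the values of single named genes and the later medians of the genes called higher, 56 lost the threshold under an alternative, 4 gained it and 1209 stayed the same, while 4 medians moved by over 0.1, at E18.5 to 0.71 (limma) and 0.93 (without the first control) and at P2.5 to 0.37 (block) and 0.35 (without the first mutant). The shallowest E16.5 library had 7610757 reads. Thbd rests on 6 and 4 reads in the controls and Gm9000 on 1 and 6 in the mutants.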

Other observations

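Genes of ribosomal proteins, a group picked after the values were seen, were mostly positive at E16.5. Of 83 tested, 77 had a positive log2 fold change and 3 were called higher (Rpl32, Rps16 and Rps27a; 0.385% of all genes were), and the median was 0.186, or 0.134 with library size alone and 0.265 by limma on RPKM. Rpl32, a protein of the large subunit, had 625.5 and 662.3 CPM in controls and 796.4 and 975.1 CPM in mutants. The genes together summed to 62119 and 65120 CPM in controls and 71997 and 71426 CPM in mutants. Their median was 0.177 at E18.5, -0.0978 at P2.5 and 0.103 at P10.5. Total RNA input was the same for each library, and RNA quality was not measured in the files.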
